A study of Oryza sativa with 12 samples.

Results

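The basic helix-loop-helix (bHLH) transcription factors of rice were described across roots and shoots of a line that overexpresses Zaxinone Synthase (ZAS) and of its wild type. Members were the gene models whose deposited description carries the Pfam domain PF00010, the helix-loop-helix DNA-binding domain. The file held 124 such models among 57501, of which 123 are described here and 1 was left out. The description gave 117 members the name of a closest homologue, with 56 distinct names, and gave no name to the other 6. Polyadenylated RNA of 21-day-old plants from hydroponic culture was sequenced in 12 libraries. The 4 groups were OX6 root, WT root, OX6 shoot and WT shoot, with 3 libraries each. OX6 is the ZAS overexpressing line and WT is Nipponbare (NB). The ZAS enzyme cleaves a carotenoid-derived substrate and releases zaxinone, a growth-promoting apocarotenoid. The promoter that drives ZAS is not given in the sources used here. OX6 is 1 line, so the effect of ZAS and any other difference between the plant stocks cannot be told apart. Whether the 3 libraries of a group came from different plants is not stated in the labels, and the p-values cover the spread between libraries, which may be technical.

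bHLH proteins bind DNA as dimers, mostly at short E-box elements (CANNTG), and the choice of partner sets which genes a dimer acts on. In plants the family has spread into subgroups with separate tasks. In Arabidopsis these include light signalling by the PIF factors, jasmonate signalling by MYC2, iron homeostasis by ILR3 and FIT, root hair growth by RHD6 (bHLH83) and its relatives, and stomatal development by SPEECHLESS, MUTE and FAMA with their partner ICE1. A further type lacks the basic region, does not bind DNA itself and acts by pairing with other bHLH proteins. The names used below are those of the closest homologue in the deposited description. They are Arabidopsis names unless rice or maize is given, and a shared name does not show a shared role in rice.

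Total counts ranged from 32269044 to 62910092 per library, and 28851 to 32074 gene models had a count. ZAS (LOC_Os09g15240, an identity that is background knowledge and not in the file) had 12637 to 14246 counts in OX6 root libraries, against 109 to 124 in WT root libraries. It had 51763 to 64950 counts in OX6 shoot libraries, against 5 to 26 in WT shoot libraries. Both organ labels were checked with marker lists. The summed level of 20 chlorophyll a-b binding protein and Rubisco small subunit models was 34.7 to 63.2 CPM (counts scaled by effective library size) in OX6 roots and 56.5 to 91.2 CPM in WT roots. It was 125914 to 132855 CPM in OX6 shoots and 151113 to 168157 CPM in WT shoots, so it was lower in each OX6 shoot library than in any WT shoot library. From 1 to 3 of these 20 models were at 0 in each library. The 10 root marker models summed to 2641 to 3357 CPM in OX6 roots and 2915 to 3465 CPM in WT roots. In shoots they summed to 15 to 18 CPM in OX6 and 17.7 to 24.7 CPM in WT. Most of this sum came from 1 gene, aquaporin NIP2-1 (LOC_Os02g51110), with 119587 to 142941 counts in WT root libraries. Of 8 root markers tested, 7 were higher in WT roots and 1, a nitrate transporter model, was lower. From 1 to 3 of the 10 were at 0 in root libraries and 3 to 5 in shoot libraries.

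The family was expressed in both organs, with some leading genes shared and others leading in only 1 of them. Members took 0.277% ± 0.0019 of all counts in OX6 roots, 0.273% ± 0.0050 in WT roots, 0.162% ± 0.0024 in OX6 shoots and 0.151% ± 0.0077 in WT shoots (SD, n = 3 each). A mean of at least 1 CPM was reached by 76 members in OX6 roots, 75 in WT roots, 81 in OX6 shoots and 81 in WT shoots. Of the 123 members, 65 reached it in all 4 groups, 10 only in root groups, 14 only in shoot groups and 31 in no group. Another 3 reached it in some other combination of groups. No count in any library was found for 5 members. These were bulk samples, so fewer cells of a type and less RNA per cell cannot be told apart.

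Levels between genes were compared per length, as RPKM (reads scaled by model length and library size). In roots the most abundant member was LOC_Os05g38140, of the name ILR3, an iron homeostasis factor in Arabidopsis. It had 171, 151 and 155 RPKM in OX6 roots, against 164, 184 and 174 RPKM in WT roots. LOC_Os04g35010, which has no homologue name, came next with 120 ± 3.1 RPKM in OX6 roots and 119 ± 5.0 RPKM in WT roots (SD, n = 3 each), and LOC_Os01g11910 (bHLH51) had 80.2 ± 5.4 RPKM in OX6 roots and 74.9 ± 5.5 RPKM in WT roots. The replicate values of these 3 genes did not overlap in OX6 roots. In WT roots bHLH51 overlapped with the next gene in the order, LOC_Os08g04390 (ILR3), at 69.1 ± 1.7 RPKM.

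In shoots that second ILR3 model led, with 92.0, 87.1 and 88.7 RPKM in OX6 shoots, against 103, 96.1 and 101 RPKM in WT shoots. It was followed by LOC_Os03g56950 (PIF1), which had 63.1 ± 1.0 RPKM in OX6 shoots and 70.7 ± 4.3 RPKM in WT shoots. LOC_Os10g40740 (UNE10, a relative of the PIF factors) had 62.5 ± 1.8 RPKM in OX6 shoots and 64.5 ± 5.3 RPKM in WT shoots. LOC_Os04g35010 had 59.0 ± 5.1 RPKM in OX6 shoots and 67.7 ± 5.5 RPKM in WT shoots, and neighbours among these 3 genes overlapped within each shoot group. The 10 most abundant members held 55.3% of the family's summed RPKM in OX6 roots, 56.3% in WT roots, 49.4% in OX6 shoots and 53.5% in WT shoots.

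The organ split was wide. Of 107 members tested, 93 differed between WT roots and WT shoots (edgeR quasi-likelihood test, adjusted p under 0.05), 55 of them higher in WT roots and 38 lower. Over all genes tested the share called was 73%, with 37.6% higher in WT roots and 35.4% lower, so the members' share of 86.9% stands on a high background. The median log2 fold change, WT root over WT shoot, was 0.42 for the members and 0.05 for all genes tested. A difference of at least 4-fold was found for 26 members higher in WT roots and 28 lower. At 10-fold or more there were 15 higher in WT roots and 23 lower, and at 100-fold or more 5 and 5. For these a gene at 0 in an organ was given 3 counts over that group, against its mean in the other organ. Genes with 1 to 3 counts in an organ were set to their depth-corrected count ratio.

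**Figure D1:**
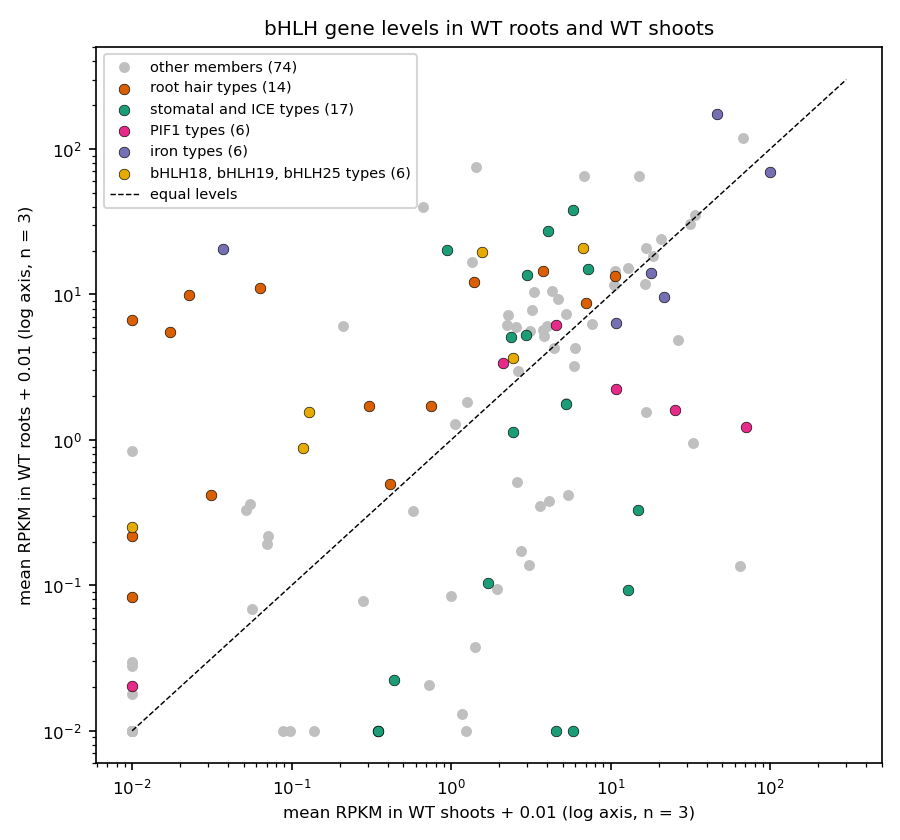
Each point is a bHLH gene, placed by its mean RPKM in WT shoots (x axis) and WT roots (y axis), both with 0.01 added and on log axes (n = 3 libraries each), and coloured by role list. Root hair types lie on or above the dashed line of equal levels, and among the stomatal and ICE types FAMA and bHLH70 sit at the floor of the root axis.

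Root hair factors lay mostly on the root side. In Arabidopsis, bHLH83 to bHLH85 start and extend root hairs, and bHLH66 and bHLH82 belong to a type that acts beside them. Of 14 models with such names, 13 were tested, 12 were higher in WT roots than in WT shoots and 0 were lower. Of all genes tested, 37.6% were higher in WT roots and 35.4% lower. LOC_Os02g48060 (bHLH83) had 7.23, 6.65 and 6.04 RPKM in WT roots and no count in the 3 WT shoot libraries. This makes it at least 350-fold higher in WT roots (bound from 3 counts over the group at 0, error of the other group's mean left out). The second bHLH83 model, LOC_Os01g02110, had 1032 counts in WT roots and 1 count in WT shoots, a depth-corrected ratio of 911 (95% exact interval 163 to 36032, counting error only). LOC_Os07g39940 (bHLH84) had 1060 counts in WT roots and 1 in WT shoots, a ratio of 936 (interval 168 to 37009). LOC_Os06g08500 (bHLH82) had 11.5, 11.4 and 10.3 RPKM in WT roots, against 0, 0.102 and 0.0578 RPKM in WT shoots.

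Not every gene of these names was confined to roots. LOC_Os06g09370, also named bHLH82, had 13.3 ± 1.1 RPKM in WT roots and 10.6 ± 0.75 RPKM in WT shoots (SD, n = 3 each). LOC_Os09g25040 (bHLH66) had 8.74 RPKM in WT roots and 6.98 RPKM in WT shoots. Across the 13 tested members the median log2 fold change, WT root over WT shoot, was 3.12 as fitted. It was 2.94 with genes at 0 held at their bound and genes with 1 to 3 counts at their ratio.

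Stomatal and ICE types split by name. All 17 were tested and called, 7 higher in WT roots and 10 lower. Over all genes tested 73% were called, 37.6% higher in WT roots and 35.4% lower. FAMA (LOC_Os05g50900), which in Arabidopsis drives the last step of guard cell formation, had no count in the 6 root libraries. It had 5.25, 5.36 and 2.96 RPKM in WT shoots and was at least 285-fold lower in WT roots. LOC_Os03g03000 (bHLH70), of the same subgroup, was likewise at 0 in the 6 root libraries, had 5.93, 6.95 and 4.44 RPKM in WT shoots and was at least 259-fold lower in WT roots. MUTE (LOC_Os05g51820) and a SPEECHLESS model (LOC_Os06g33450), which act earlier in the guard cell lineage of Arabidopsis, had 0 counts in WT roots and only 28 and 105 counts in WT shoots. Their bounds were at least 9.82-fold and at least 45.4-fold lower in WT roots, with the error of the WT shoot mean left out.

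Both ICE1 models, named for the Arabidopsis partner of those 3 factors, followed the same side. LOC_Os11g32100 had 0.0720, 0.107 and 0.0711 RPKM in WT roots, against 11.2, 13.4 and 14.0 RPKM in WT shoots (152-fold lower in WT roots, log2 fold change -7.24 ± 0.22 SE). LOC_Os01g70310 had 0.319 ± 0.043 RPKM in WT roots and 14.8 ± 2.9 RPKM in WT shoots. The 7 models higher in WT roots were instead named bHLH93 (3 models), bHLH96 (3 of 4) and bHLH94 (1 of 3), which in Arabidopsis are relatives of ICE1 or of FAMA and not the stomatal regulators themselves. LOC_Os03g04310 (bHLH93) was the most abundant of them, at 37.8 ± 0.92 RPKM in WT roots and 5.83 ± 0.64 RPKM in WT shoots.

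Light signalling names leaned to shoots at the level of their main genes. LOC_Os03g56950 (PIF1) had 1.30, 1.05 and 1.33 RPKM in WT roots, against 72.7, 73.8 and 65.7 RPKM in WT shoots (57.7-fold lower in WT roots). UNE10 had 0.110, 0.0724 and 0.192 RPKM in WT roots, against 63.1, 70.4 and 60.0 RPKM in WT shoots (log2 fold change -8.99 ± 0.17 SE). Every WT root library lay far below every WT shoot library for both genes. Of the other PIF1 models, LOC_Os03g43810 and LOC_Os07g05010 were also lower in WT roots, while LOC_Os12g41650 was higher with a log2 fold change of 0.45 and LOC_Os04g52770 with 0.67.

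Iron-related names were all called but moved both ways, where 73% of all genes tested were called. The FIT-like model LOC_Os04g31290, named for the Arabidopsis regulator of root iron uptake, had 20.6, 21.2 and 19.7 RPKM in WT roots, against 0, 0.0135 and 0.0685 RPKM in WT shoots (log2 fold change 9.54 ± 0.34 SE). Of 4 ILR3 models, LOC_Os05g38140 was 3.76-fold higher in WT roots and the other 3 were lower, with log2 fold changes of -0.35, -0.53 and -1.16. LOC_Os02g23823 (bHLH121, which pairs with ILR3 types in Arabidopsis) had 6.34 RPKM in WT roots and 10.8 RPKM in WT shoots. All 6 models named bHLH18, bHLH19 or bHLH25 were higher in WT roots, against 37.6% of all genes tested. The corresponding Arabidopsis subgroup acts on FIT under jasmonate. The most abundant of the 6 in WT roots were LOC_Os03g51580 at 20.9 RPKM and LOC_Os12g43620 at 19.5 RPKM, against 6.70 and 1.55 RPKM in WT shoots.

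For several homologue names, all tested models were higher in the same organ. These are small groups, and 37.6% of all genes tested were higher in WT roots and 35.4% lower. The 3 bHLH128 models had 65.0, 65.5 and 40.1 RPKM in WT roots, against 15.1, 6.76 and 0.655 RPKM in WT shoots. The 3 bHLH51 models were also higher in WT roots, LOC_Os01g11910 by 51.8-fold. All 3 tested bHLH137 models and both APG models (named for a rice factor of grain length) were lower in WT roots. The neighbouring bHLH35 models on chromosome 4, with 65200 bases between them, differed from each other. LOC_Os04g23440 had 0.938 RPKM in WT roots and 32.6 RPKM in WT shoots, while LOC_Os04g23550 had 1.27 RPKM in WT roots and 1.04 RPKM in WT shoots and was not called (adjusted p = 0.359 by edgeR).

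Of the members with no homologue name, LOC_Os01g39330 was 12.4-fold higher in WT roots, with 16.6 RPKM in WT roots and 1.35 RPKM in WT shoots, and LOC_Os01g01870 was 5.44-fold lower, with 4.83 RPKM in WT roots and 26.3 RPKM in WT shoots. LOC_Os01g09990 (bHLH041), in no role list, was 29.2-fold higher in WT roots. LOC_Os10g42430 (MYC2) had 24.2 ± 0.83 RPKM in WT roots and 20.6 ± 3.6 RPKM in WT shoots (log2 fold change 0.23, adjusted p = 0.0463, edgeR). LOC_Os09g34330, the second MYC2 model, had 3 counts in WT roots and 146 in WT shoots, a ratio of 55.1 in favour of shoots (interval 18.5 to 270.3). Some further named models were near the detection limit in WT roots. UDT1 (LOC_Os07g36460), a tapetum factor of rice, had 0.0838 RPKM in WT roots and 1.92 RPKM in WT shoots. HEC1 (LOC_Os08g36740), of Arabidopsis carpel development, had 1 count in WT roots and 57 in WT shoots, and the Lc model LOC_Os04g47080, named for a maize anthocyanin regulator, had 1 count in WT roots and 332 in WT shoots.

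**Figure D2:**
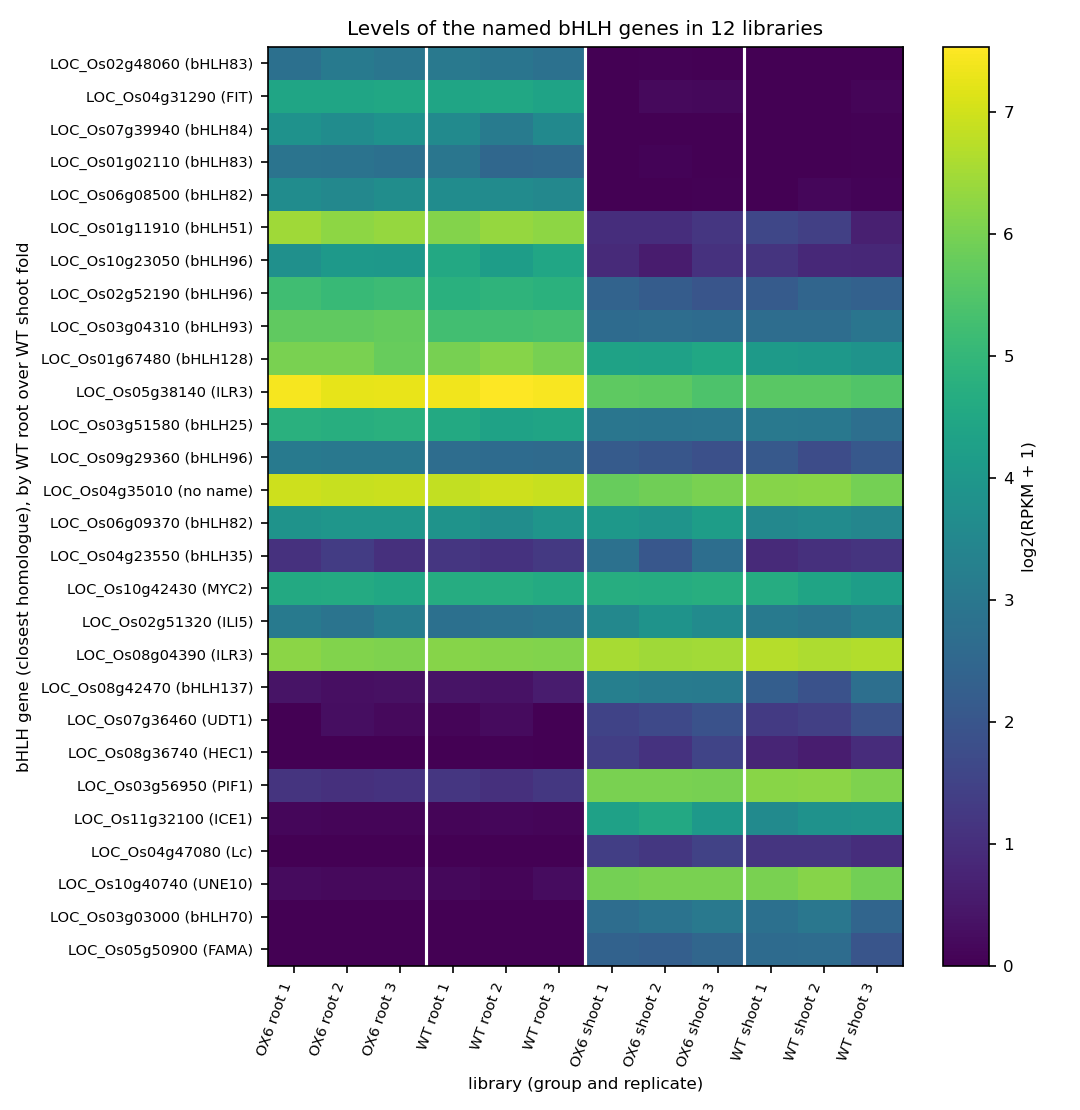
Rows are the 28 named bHLH genes, ordered by the fold of WT roots over WT shoots, and columns are the 12 libraries. Colour is log2(RPKM + 1). The contrast between root and shoot columns is far stronger than that between OX6 and WT columns, and the lowest rows (UNE10, bHLH70, FAMA) are dark in all 6 root libraries.

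Few bHLH genes were called in OX6 roots, and those called by edgeR differed by less than 1.4-fold. Of 93 members tested, 4 were higher and 1 was lower in OX6 roots, which is 5.38% against 2.83% of all genes tested (1.19% higher and 1.64% lower). The members' median log2 fold change was 0.03, against 0.00 for all genes. Unadjusted p was under 0.05 for 16 members. Replicate values of the genotypes did not overlap for 24 of the 93, 12 higher and 12 lower, which is 25.8% against 19% of all genes. Changes of 2-fold or more were fitted for 2 members, neither of them called. DESeq2 and limma-voom also called LOC_Os01g09990 (bHLH041) lower in OX6 roots, which edgeR did not (1.64-fold, log2 fold change -0.72 ± 0.22 SE, adjusted p = 0.182). It had 10.3, 8.06 and 4.99 CPM in OX6 roots, against 13.3, 13.0 and 12.1 CPM in WT roots, without overlap. Of the chlorophyll a-b binding protein and Rubisco models, 1 of 16 tested was lower and 0 were higher in OX6 roots, with the summed levels given above (34.7 to 63.2 CPM in OX6 roots, 56.5 to 91.2 CPM in WT roots), and their part in the bHLH results was not tested.

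The clearest root change was that of LOC_Os03g04310 (bHLH93; chromosome 3, 1983522 to 1985736, minus strand, coordinates as in the file, whose build is not given in the sources used here). It had 98.3, 98.9 and 103 CPM in OX6 roots, against 72.9, 73.0 and 76.2 CPM in WT roots. Every OX6 value lay above every WT value by more than the spread within either group. The log2 fold change was 0.44 ± 0.061 (SE; 1.35-fold, edgeR adjusted p = 0.000497), and the gene remained called without any 1 library.

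Of the 4 bHLH96 models, relatives of the stomatal factors, 2 were called higher and 1 lower in OX6 roots. Over all genes tested in roots 2.83% were called, 1.19% higher and 1.64% lower. LOC_Os02g52190 (chromosome 2, 31959228 to 31961185, minus strand) had 56.3, 50.5 and 54.5 CPM in OX6 roots, against 41.4, 44.4 and 41.7 CPM in WT roots (log2 fold change 0.34 ± 0.070 SE, edgeR adjusted p = 0.0124). LOC_Os09g29360 (chromosome 9, 17826479 to 17828460, plus strand) had 12.8, 12.1 and 12 CPM in OX6 roots, against 9.36, 8.82 and 8.74 CPM in WT roots (0.45 ± 0.099 SE, adjusted p = 0.0198). Both were higher in each OX6 root library than in any WT root library. LOC_Os10g23050 (chromosome 10, 12015873 to 12017745, plus strand) ran the other way, with 20.9, 25.7 and 25.3 CPM in OX6 roots, against 37.0, 28.3 and 34.5 CPM in WT roots. Its groups did not overlap, but the lowest WT value stood near the highest OX6 value (log2 fold change -0.47 ± 0.11 SE, edgeR adjusted p = 0.0275). The remaining bHLH96 model, LOC_Os02g46560, was not called, with a log2 fold change of -0.37 (adjusted p = 0.417).

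The fifth was LOC_Os03g51580 (bHLH25; chromosome 3, 29516646 to 29519095, plus strand). It had 61.7, 60.2 and 62.8 CPM in OX6 roots, against 53.8, 45.5 and 47.5 CPM in WT roots (log2 fold change 0.33 ± 0.073 SE, edgeR adjusted p = 0.0198), again without overlap.

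Each of these last 4 calls was lost without some single library. Without WT root replicate 1 the adjusted p was 0.0709 for LOC_Os02g52190, 0.0517 for LOC_Os09g29360 and 0.107 for LOC_Os10g23050. Without WT root replicate 2 it was 0.0821 for LOC_Os09g29360 and 0.114 for LOC_Os03g51580. Without WT root replicate 3 it was 0.0868 for LOC_Os02g52190, 0.105 for LOC_Os09g29360, 0.125 for LOC_Os03g51580 and 0.133 for LOC_Os10g23050. Leaving out an OX6 library ended a call in 3 cases, LOC_Os10g23050 without replicate 1 (0.0646), LOC_Os09g29360 without replicate 2 (0.0516) and LOC_Os03g51580 without replicate 3 (0.0514). The count of called members was 2, 3 and 1 without WT root replicate 1, 2 and 3. Over all genes it was 407 to 773 with a root library left out, against 753. In the fit of all 12 libraries only LOC_Os03g04310 remained called in roots, and the adjusted p of the other 4 was 0.164 to 0.294. No fold changed sign in any of these fits.

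By role, 4 of the 5 root calls fell in the stomatal and ICE list, where 11 of 17 models were tested in roots (36.4% called, against 2.83% of all genes tested), and the fifth in the bHLH18, bHLH19 and bHLH25 list, where all 6 were tested. The 4 named bHLH93 and bHLH96 there are not stomatal regulators by name. No member passed the edgeR test in roots among 13 root hair models, 6 iron models, 5 PIF1 models, 3 MYC models or 25 growth models. The growth list is a keyword grouping of mixed names, among them bHLH49, bHLH62, bHLH74, bHLH128, bHLH130, bHLH137, BIM2, BPE and APG. The MYC list is mixed too, with models named MYC2, bHLH13, bHLH14 and ABA-INDUCIBLE bHLH-TYPE. Of its MYC2 models only LOC_Os10g42430 was tested in roots. An unadjusted p under 0.05 was found for 1 root hair, 1 iron, 0 PIF1, 0 MYC and 3 growth models. By limma-voom these lists had 0 calls too, and DESeq2 called 1 growth model, LOC_Os08g39630, lower in OX6 roots. For LOC_Os05g38140 (ILR3), the most abundant member, the log2 fold change was -0.13 ± 0.067 SE with an adjusted p of 0.440. For FIT-like LOC_Os04g31290 it was 0.03 ± 0.069 SE (adjusted p = 0.926, edgeR).

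In OX6 shoots 5 of 90 tested members were higher and 0 were lower. This 5.56% lies close to the background, 5.64% of all genes tested (3.18% higher and 2.46% lower). By DESeq2 10 members were called in shoots, 9 higher and 1 lower. The count of all genes called in shoots moved as well, from 397 to 2459 over the alternatives, against 1481. LOC_Os10g39750 (bHLH93) was called higher by DESeq2 and limma-voom, not by edgeR (log2 fold change 1.09 ± 0.33 SE, adjusted p = 0.0827). In roots it was also higher but not called (0.38 ± 0.10 SE, edgeR adjusted p = 0.0632), and its genotypes did not overlap in either organ. The lower gene by DESeq2 was LOC_Os04g50090 (bHLH94; edgeR -1.24 ± 0.38 SE, adjusted p = 0.0689). The members' median log2 fold change was 0.06, against -0.01 for all genes, and 26 had an unadjusted p under 0.05. Groups did not overlap for 27 of the 90, 21 higher and 6 lower, which is 30% against 24% of all genes. The chlorophyll a-b binding protein and Rubisco list had 5 of 18 tested models lower and 0 higher in OX6 shoots (9 lower by DESeq2), with a summed level of 125914 to 132855 CPM in OX6 shoots and 151113 to 168157 CPM in WT shoots, and its part in the bHLH results was not tested.

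Among the called members the largest fold was that of LOC_Os04g23550 (bHLH35; chromosome 4, 13466420 to 13468869, minus strand). It had 7.24, 3.74 and 6.69 CPM in OX6 shoots, against 1.02, 1.28 and 1.45 CPM in WT shoots. The lowest OX6 value, from replicate 2, was still more than 2-fold above the highest WT value. The log2 fold change was 2.23 ± 0.28 (SE; 4.70-fold, edgeR adjusted p = 6.43e-05), and it lay between 2.06 and 2.47 with any 1 library left out. Its neighbour LOC_Os04g23440, of the same name, had 43.3 RPKM in OX6 shoots where LOC_Os04g23550 had 4.90 RPKM. It had 36.0, 26.7 and 35.7 CPM in OX6 shoots, against 23.9, 29.7 and 20.5 CPM in WT shoots. Those groups overlapped and the gene was not called (log2 fold change 0.41 ± 0.15 SE, adjusted p = 0.123).

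LOC_Os08g42470 (bHLH137; chromosome 8, 26841064 to 26843299, minus strand) had 9.90, 9.20 and 8.65 CPM in OX6 shoots, against 4.45, 3.21 and 6.70 CPM in WT shoots (log2 fold change 0.96 ± 0.22 SE, edgeR adjusted p = 0.0146). The other 2 bHLH137 models with counts had the same arrangement without passing the test. LOC_Os05g01256 had 6.87, 6.37 and 5.75 CPM in OX6 shoots, against 4.51, 3.97 and 3.40 CPM in WT shoots (0.68 ± 0.20 SE, adjusted p = 0.0504). LOC_Os09g33580 had 7.98, 6.24 and 5.69 CPM in OX6 shoots, against 2.37, 4.46 and 4.75 CPM in WT shoots (0.77 ± 0.24 SE, adjusted p = 0.0732). In all 3, every OX6 shoot library lay above every WT shoot library. Of all genes tested in shoots, 24% did not overlap in either direction. The 2 uncalled models were picked after their values were seen.

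LOC_Os06g09370 (bHLH82; chromosome 6, 4709743 to 4715552, minus strand), the root hair name that was also abundant in shoots, had 30.0, 27.5 and 34.0 CPM in OX6 shoots, against 20.7, 22.6 and 19.8 CPM in WT shoots. The groups did not overlap (log2 fold change 0.54 ± 0.12 SE, edgeR adjusted p = 0.0099). ICE1 model LOC_Os11g32100 (chromosome 11, 18922046 to 18925259, plus strand) had 31.6, 38.0 and 26.4 CPM in OX6 shoots, against 19.0, 22.6 and 23.7 CPM in WT shoots (0.55 ± 0.14 SE, adjusted p = 0.0210). The second ICE1 model, LOC_Os01g70310, had a log2 fold change of 0.04 in shoots (adjusted p = 0.92).

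LOC_Os02g51320 (ILI5; chromosome 2, 31423943 to 31425239, minus strand) carries the name of a rice protein of the type that does not bind DNA, linked to brassinosteroid-driven cell elongation. It had 9.70, 12.6 and 10.4 CPM in OX6 shoots, against 6.85, 6.17 and 7.91 CPM in WT shoots, with no overlap (log2 fold change 0.64 ± 0.17 SE, edgeR adjusted p = 0.0275). It was the only member of its list.

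**Figure D3:**
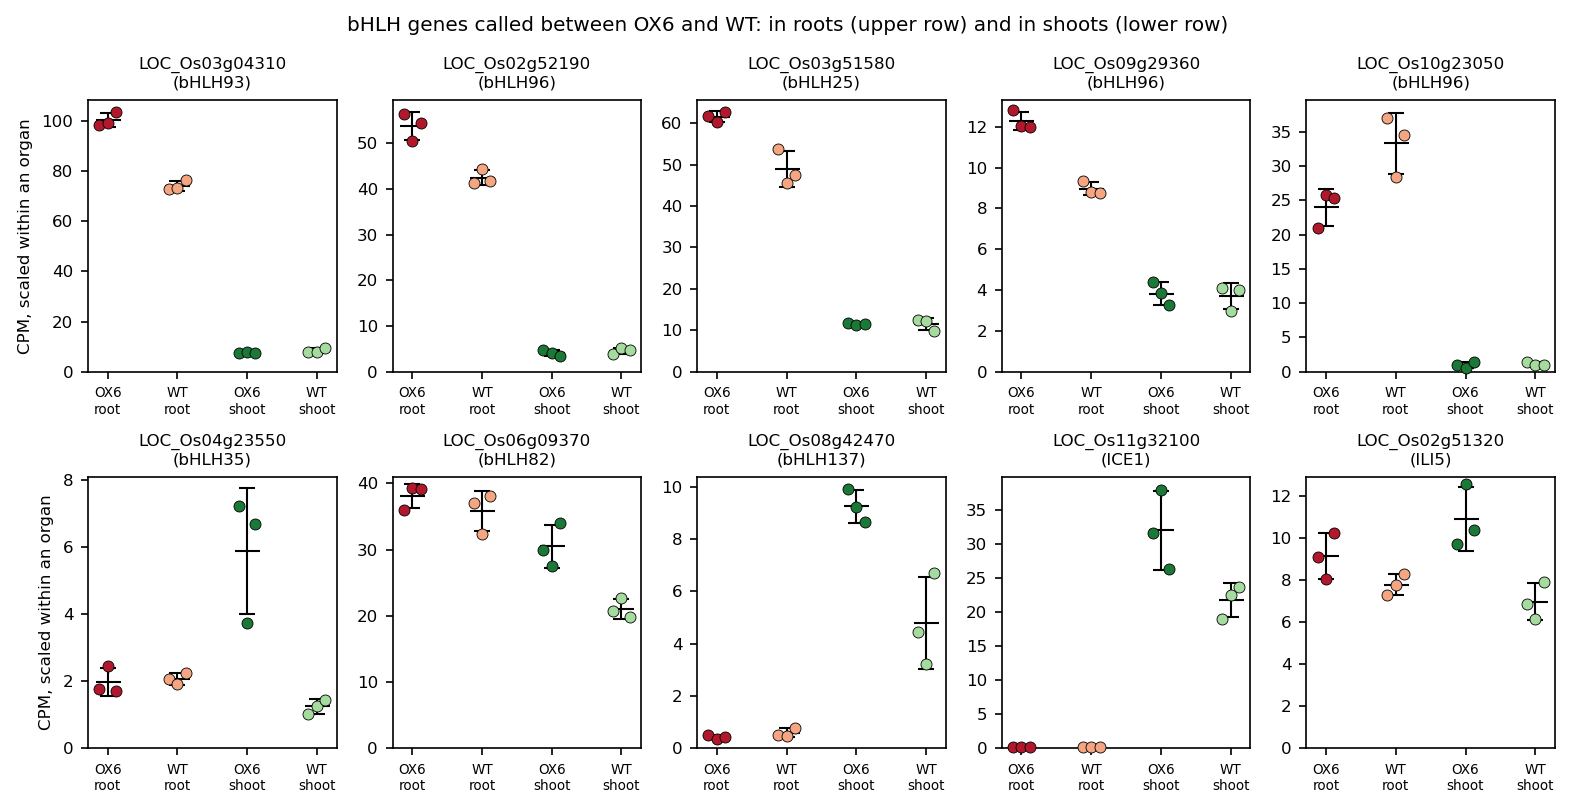
CPM, scaled within an organ, of the 10 bHLH genes called between OX6 and WT, in the 3 libraries of each group (points), with the mean and SD (bars). The upper row shows the 5 called in roots and the lower row the 5 called in shoots; LOC_Os04g23550 sits at 3.74 to 7.24 CPM in OX6 shoots, above 1.02 to 1.45 CPM in WT shoots and near 2 CPM in both root groups.

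Of the 5 shoot calls, LOC_Os04g23550 alone held without any 1 library. LOC_Os06g09370 was lost without OX6 shoot replicate 3 (edgeR adjusted p = 0.0992). LOC_Os08g42470 was lost without WT shoot replicate 2 (0.0646) and without OX6 shoot replicate 1 (0.0788), 2 (0.0628) or 3 (0.0549). LOC_Os11g32100 was lost without WT shoot replicate 1 (0.0509) or 2 (0.0547) and without OX6 shoot replicate 1 (0.0794) or 2 (0.174). LOC_Os02g51320 was lost without WT shoot replicate 2 (0.112) and without OX6 shoot replicate 2 (0.183) or 3 (0.0895). The number of called members was 8 without WT shoot replicate 1, and 3, 2 and 2 without OX6 shoot replicate 1, 2 and 3. Over all genes it was 708 to 1877 with a shoot library left out, against 1481.

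Most role lists had no call between the genotypes in shoots. No member was called by edgeR, DESeq2 or limma-voom among 5 iron, 5 PIF1, 4 MYC, 4 SPATULA and UNE, 3 bHLH18, bHLH19 and bHLH25 or 7 vascular models tested there, and each of these lists held 1 model with an unadjusted p under 0.05 by edgeR. The 26 growth models tested had 1 call by edgeR, LOC_Os08g42470. Their median log2 fold change was 0.27, with 21 of 26 values above 0. These models were measured in the same libraries, so their values are not independent, and the list label does not show a shared role. Over all genes tested the median was -0.01, with 12904 of 26251 values above 0. DESeq2 called 4 growth models, all higher in OX6 shoots, LOC_Os08g42470, LOC_Os05g01256, LOC_Os09g33580 and LOC_Os01g67480, and limma-voom called the first 2 of these. For LOC_Os10g42430 (MYC2) the values were 58.7, 58.0 and 60.4 CPM in OX6 shoots, against 57.9, 47.9 and 41.0 CPM in WT shoots. Its groups did not overlap, though the lowest OX6 and the highest WT value nearly met (log2 fold change 0.27 ± 0.12 SE, edgeR adjusted p = 0.221). LOC_Os03g56950 (PIF1) had 132, 131 and 128 CPM in OX6 shoots, against 150, 152 and 136 CPM in WT shoots (-0.17 ± 0.098 SE, adjusted p = 0.399). FAMA had a log2 fold change of -0.10 ± 0.22 SE in shoots (adjusted p = 0.867).

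**Figure D4:**
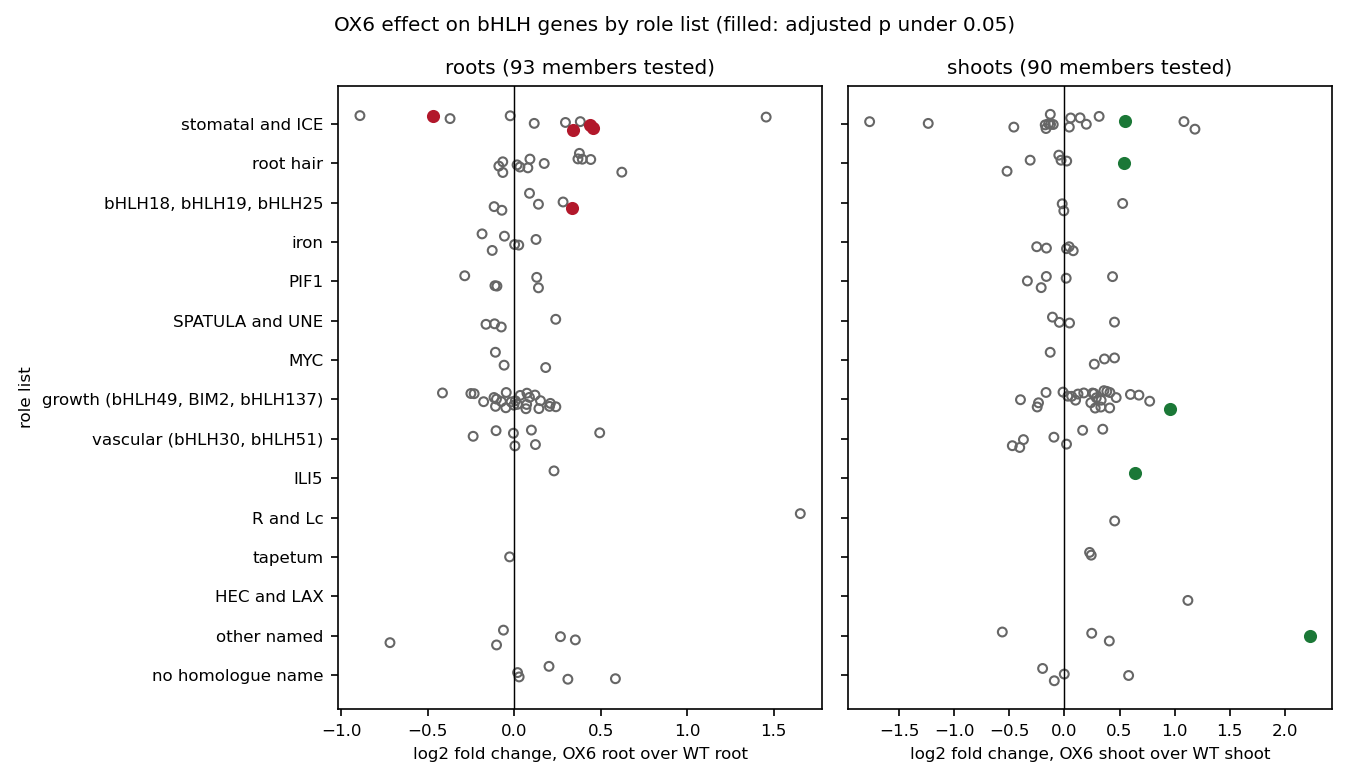
Log2 fold change of each tested bHLH gene, OX6 over WT, in roots (left, 93 genes) and in shoots (right, 90 genes), with a row for each role list. Filled points passed the test; in roots 4 of the 5 lie in the stomatal and ICE row, and in shoots all 5 lie to the right of 0, in 5 different rows.

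No member was called in both organs, and 10 were called in either. The share of all genes called in both organs was not counted. With only 5 calls in each organ, the lack of a shared call does not show that the effects differ by organ. Whether the OX6 effect differed between the organs was tested as an interaction, the shoot effect minus the root effect, in the fit of all 12 libraries. Of 107 members tested, 1 was higher and 1 was lower, which is 1.87% against 1.97% of all genes tested (1.28% higher and 0.692% lower). For LOC_Os04g23550 the difference was 2.30 ± 0.38 (log2, SE; edgeR adjusted p = 0.00217). Its root values were 1.76, 2.47 and 1.72 CPM in OX6 roots, against 2.06, 1.91 and 2.25 CPM in WT roots, which overlap. LOC_Os03g04310 (bHLH93) had a difference of -0.58 ± 0.13 (adjusted p = 0.0197). In shoots it had 7.58, 7.87 and 7.44 CPM in OX6, against 7.91, 7.89 and 9.53 CPM in WT, so the highest OX6 value lay just under the lowest WT value.

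The interaction of LOC_Os03g04310 was not called without WT root replicate 1 (adjusted p = 0.0617) or 2 (0.0603), OX6 root replicate 3 (0.0595) or OX6 shoot replicate 3 (0.0572), by edgeR, nor by limma-voom (0.0513). The next members by p were not called. They were LOC_Os01g67480 (bHLH128; 0.50 ± 0.14 SE, adjusted p = 0.0731), LOC_Os08g42470 (1.38 ± 0.43 SE, adjusted p = 0.124) and LOC_Os06g09370 (0.45 ± 0.14 SE, adjusted p = 0.131). Without WT shoot replicate 3, LOC_Os08g42470 was called with a difference of 1.67 (adjusted p = 0.0226). DESeq2 called LOC_Os01g67480 (0.47, adjusted p = 0.0416). The number of members called was 4 without WT shoot replicate 1 and 4 without WT shoot replicate 3. Over all genes it was 382 to 701 with a library left out, against 572.

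**Figure D5:**
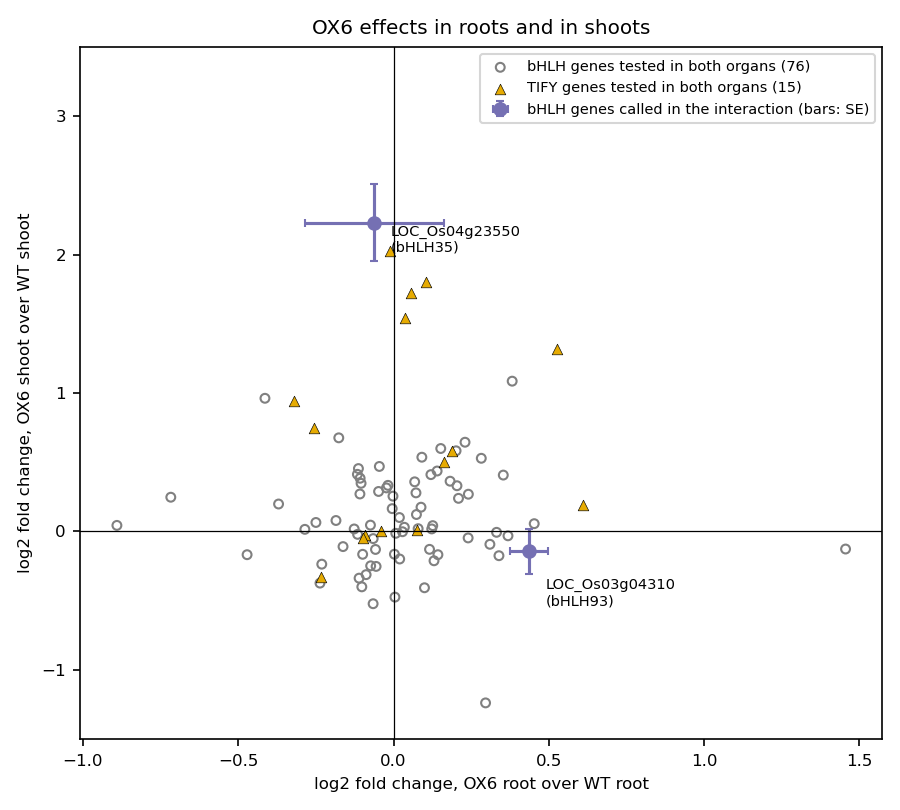
Log2 fold change, OX6 over WT, in roots (x axis) and in shoots (y axis) of the 76 bHLH genes (circles) and the 15 TIFY genes (triangles) tested in both organs. The 2 bHLH genes called in the interaction carry SE bars; LOC_Os04g23550 lies at -0.06 in roots and 2.23 in shoots, beside the higher TIFY genes.

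Partner genes of the family were counted as lists. TIFY proteins of the JAZ type bind MYC2-like factors and hold them inactive until jasmonate triggers their breakdown. Of 18 TIFY models, 7 of 16 tested were higher and 0 were lower in OX6 shoots, with a median log2 fold change of 0.54, against 5.64% of all genes called and a median of -0.01. In roots 0 of 15 were called by edgeR, DESeq2 or limma-voom, and 3 had an unadjusted p under 0.05 by edgeR. The 7 called in shoots were TIFY 6a (LOC_Os08g33160), 9, 10a, 11a, 11b, 11d and 11e. The second TIFY 6a model, LOC_Os12g41560, was not called (log2 fold change 0.19, edgeR adjusted p = 0.652). DESeq2 called the same 7, and limma-voom called 6 of them, without TIFY 9. TIFY 11d (LOC_Os10g25290) had 38.0, 21.2 and 24.4 CPM in OX6 shoots, against 6.91, 10.6 and 6.23 CPM in WT shoots (log2 fold change 1.80 ± 0.25 SE, adjusted p = 0.00143). TIFY 10a (LOC_Os03g28940) had 108, 75.3 and 84.5 CPM in OX6 shoots, against 55.6, 55.4 and 48.0 CPM in WT shoots (0.75 ± 0.13 SE, adjusted p = 0.00121). In both, every OX6 shoot library was above every WT shoot library. The TIFY 11 models lie in chromosome clusters of like genes, so reads may be shared among them. From 5 to 6 TIFY genes were called with 1 shoot library left out, and 4 to 8 under the other alternative settings.

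The interaction was called for 3 of 16 TIFY genes, all higher in the shoot effect, TIFY 10a, 11b and 11d. Over all genes tested 1.97% were called in the interaction, 1.28% higher. With 1 library left out the number of TIFY genes called was 2 to 6. It was lowest without WT shoot replicate 1 and highest without WT shoot replicate 2. In the MYC list (models named MYC2, bHLH13, bHLH14 or ABA-INDUCIBLE bHLH-TYPE), no call was made beside these TIFY calls in either organ. Of its MYC2 models, LOC_Os10g42430 was tested in both organs and LOC_Os09g34330 in shoots only.

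The other partner lists had few calls. Phytochromes A, B and C, the light receptors that bind PIF factors, had no call in roots or in shoots by edgeR, DESeq2 or limma-voom, and 0 had an unadjusted p under 0.05 by edgeR. Of 2 BRUTUS models, ubiquitin ligases that act on ILR3 types in Arabidopsis, LOC_Os05g47780 was higher in OX6 shoots with 18.5, 16.5 and 15 CPM, against 12, 12.2 and 11.5 CPM in WT shoots. Its groups did not overlap (log2 fold change 0.48 ± 0.13 SE, edgeR adjusted p = 0.0395), and it remained called without WT shoot replicate 1 but not without any other single shoot library. Among 36 models of iron uptake, chelation and storage, 1 of 29 tested was higher in OX6 roots and 0 were lower, while 1 of 23 was higher and 1 lower in OX6 shoots. These are 3.45% in roots and 8.7% in shoots, against 2.83% and 5.64% of all genes tested. Nicotianamine synthase 3 (LOC_Os07g48980), an enzyme of the iron chelator nicotianamine, rose in OX6 roots (0.43, adjusted p = 0.00772) and fell in OX6 shoots (-0.74, adjusted p = 0.00773). The transporter YSL13 (LOC_Os04g44300) was the gene higher in OX6 shoots (1.04, adjusted p = 0.0396). In shoots this list had 0 calls without OX6 shoot replicate 2 and 3 without WT shoot replicate 2, and 1 without WT shoot replicate 1 or OX6 shoot replicate 1 or 3. In roots it had 2 calls without OX6 root replicate 3. DESeq2 called 4 genes of this list in shoots, 3 higher and 1 lower, and 2 in roots, 1 higher and 1 lower.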

How the data were processed

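Raw counts of reads per gene model were deposited by the authors. The submitters' processing notes name HISAT2 2.0.5, an aligner, and featureCounts 1.5.0-p3, a read counter. No genome build, annotation or strand setting is given in the sources used here, so reads of overlapping, antisense or near-identical genes may be shared. The deposited table also gives a gene length for each model (not a count), used for RPKM. Groups and replicate numbers come from the sample titles. The members, lists and tests were chosen with earlier results of these data known.

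Counts were tested with edgeR 4.0.16 (R 4.3.3; quasi-likelihood test, robust, TMM scaling, filterByExpr with a minimum count of 10 and total of 15), two-sided, with Benjamini-Hochberg adjustment over all genes tested. Genes with adjusted p under 0.05 were called. Each organ had its own fit of 6 libraries, with 26574 genes tested in roots and 26251 in shoots. The interaction and the comparison of WT organs used 1 fit of 12 libraries with 29042 genes. Of the 123 members, 93, 90 and 107 passed the filter in these fits, and 16 passed in none. Variation between libraries beyond counting error (coefficient of variation, biological or technical) came to 9.61% for roots, 16.2% for shoots and 13.2% for all 12. CPM were scaled within an organ and RPKM over 12 libraries. SE was taken as the size of the log2 fold change divided by the square root of its F statistic. The median width of the 95% interval of a member's log2 fold change was 0.47 in roots and 0.77 in shoots.

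Role lists were matched to homologue names by keyword. Keyword matches outside the theme were dropped after they were seen (10 TIFY, 2 phytochrome, 1 BRUTUS, 3 iron and 6 shoot marker models), and 2 APG models were moved to the growth list. Named genes were all called members, the 5 of smallest interaction p, the 5 largest organ folds in each direction among called members with at least 5 CPM, the 3 of highest RPKM per group, and the most abundant member of each list left without a name. Further members are given as examples chosen after their values were seen. Replicates differed by a chi-square per gene of 5.14 to 26.7, so no library was a copy. Alternatives covered the scaling (RLE, upper quartile), the filter (none, or CPM above 1 in 3 libraries), the tool (DESeq2 1.42.0, limma-voom with limma 3.58.1), a replicate block, the thresholds, the samples fitted and the omission of single libraries. In simulated counts the scripts recovered planted 2-fold changes, at a share not given here. Smaller changes, such as those called in roots, were not simulated.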

Additional observations from a re-analysis of the deposited data

Results flagged for a closer look

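The OX6 effect differed between shoots and roots for 2 bHLH genes, by the interaction test of edgeR over 12 libraries. For LOC_Os04g23550 (bHLH35) the shoot effect minus the root effect was 2.30 on the log2 scale (adjusted p = 0.00217), with 4.90 ± 1.6 RPKM in OX6 shoots against 1.04 ± 0.18 RPKM in WT shoots, and 1.21 ± 0.25 RPKM in OX6 roots against 1.27 ± 0.11 RPKM in WT roots (SD, n = 3 each). Its adjusted p ranged up to 0.0122 over the 21 alternatives, and each of them called it. For LOC_Os03g04310 (bHLH93) the difference was -0.58 (adjusted p = 0.0197), with 51.0 ± 1.1 RPKM in OX6 roots against 37.8 ± 0.92 RPKM in WT roots, and 5.28 ± 0.16 RPKM in OX6 shoots against 5.83 ± 0.64 RPKM in WT shoots. Its adjusted p over the alternatives was 0.000213 to 0.0617, and the call was lost in 4 of the 12 single-library omissions, by limma-voom (0.0513), at an adjusted p under 0.01 and when a 2-fold change was also required.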

How the results depend on the processing

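The values followed were those of the 5 members called in roots, the 5 called in shoots, the 5 of smallest interaction p and 10 of the largest organ folds. None of them changed sign under any alternative. They were picked from these same data for small p or large fold, so a stable sign was likely beforehand. Other values of the named genes were not followed. For roots, the count of 5 called members became 1 at an adjusted p under 0.01, 0 when a 2-fold change was also required, 1 in the fit of all 12 libraries, and 1 to 5 with a library left out. For shoots, 5 became 12 with no count filter, 10 by DESeq2, 10 in the fit of all 12 libraries, 2 at an adjusted p under 0.01, 1 with that fold limit, and 2 to 8 with a library left out. For the interaction, 2 became 1 by limma-voom, 1 at an adjusted p under 0.01, 1 with the fold limit, and 1 to 4 with a library left out. The counts over all genes moved too. With a library left out they were 407 to 773 in roots, 708 to 1877 in shoots and 382 to 701 in the interaction. Under the other alternatives they were 224 to 1113, 397 to 2459 and 294 to 1207. The main counts were 753, 1481 and 572. The cause was not tested. The organ comparison gave 71 to 96 called members over its alternatives, against 93, with 84 from the 6 WT libraries alone. Over all genes it gave 13762 to 21718, against 21193. Among the followed values, 55 of 80 in roots and 61 of 80 in shoots stayed on the same side of the threshold. So did 96 of 105 in the interaction and all 220 in the organ comparison. Scaling by RLE or upper quartile moved the median of all genes by at most 0.0993 (log2). With the replicate number as a block, 6 members were called in roots, 7 in shoots, 2 in the interaction and 93 between organs. Same-numbered libraries did not deviate together (correlations of -0.0594 to 0.0509), so the numbers were not taken to pair them. Among the members, 16 had too few counts to be tested in any fit, so changes in them were not detectable at this depth.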
